A study of Mus musculus with 8 samples.

Results

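The genes described here are 40 proliferation and DNA replication genes, chosen by symbol from a fixed list, in microvascular endothelial cells with and without LRP1, a large endocytic and signaling receptor related to the LDL receptor. Of the 40, 16 act in DNA synthesis and in entry into S phase and 24 act in G2 and mitosis. The deposited RNA sequencing table lists 38 of them among its 22520 genes, and all 38 (14 replication and 24 mitotic genes) were expressed highly enough to be tested, out of 11389 genes tested in all. Gins2 and Cdt1, a helicase subunit and a licensing factor, were not analysed here. The list was not chosen on measured values, but it was proposed when earlier results from these libraries were known.

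The RNA came from C57BL/6 mice at postnatal day 14, with 4 libraries from LRP1 KO mice and 4 from wild-type (WT) littermates, and each library is labelled as a mixture of heart, liver and lung cells. The paper instead treats liver cells and heart-plus-lung cells as separate isolates. The labels were followed here, and which organs each library holds was not settled. Per the study's methods, both groups carried floxed Lrp1 alleles (LRP1 f/f). Only the LRP1 KO mice carried 1 copy of Cdh5-CreER, a tamoxifen-inducible Cre recombinase driven by the promoter of the endothelial gene Cdh5, so Cre and the loss of LRP1 always came together. The dosing of tamoxifen is not given in the sources used here. Endothelial cells were picked out with beads that bind PECAM-1, a surface protein of endothelial cells that platelets and some leukocytes also carry. Nothing in the labels says that the 4 libraries of a group came from separate mice or cultures, so the p-values measure the spread between these libraries, which may be technical. Values are taken to be FPKM (fragments scaled to transcript length and to the number of fragments mapped), a unit inferred here. They were quantile normalized across libraries before deposit, so that sequencing depth is unknown and cannot be recovered.

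A cell divides by copying its DNA in S phase and then separating the copies in mitosis. Before S phase, origins of replication are licensed by loading the MCM helicase, and cyclin D and cyclin E kinases free the E2F transcription factors, which switch on genes for DNA synthesis and nucleotide supply. Later, the DREAM and MuvB complexes together with B-MYB and FOXM1 time the expression of mitotic genes through promoter elements named the cell cycle genes homology region (CHR) and the CCAAT box. Endothelial cells in adult vessels are mostly quiescent, whereas those of a growing animal still divide.

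Before the cell cycle genes, the labels and the makeup of the libraries were checked. Lrp1 itself had a mean of 120 ± 16 FPKM (SD, n = 4) in WT and 4.79 ± 2.20 FPKM (n = 4) in LRP1 KO, which is 3.99% of the level in WT, a log2 fold change of -4.45 (SE 0.23, limma adjusted p = 8.89e-05). Of 20 endothelial marker genes, 19 had a WT mean of at least 1 FPKM, yet their summed level in WT, 293 to 313 FPKM, was below that of 13 fibroblast markers, 2997 to 4248 FPKM. The groups also differed in the sums of other marker lists, with 18 macrophage markers at 90.5 to 116 FPKM in WT, against 242 to 587 FPKM in LRP1 KO (9 and 12 of them at a mean of at least 1). The 15 leukocyte markers summed to 10.1 to 17.4 FPKM in WT and to 55.4 to 113 FPKM in LRP1 KO. The 12 markers of mural cells, which wrap small vessels, summed to 675 to 841 FPKM in WT, against 1047 to 1646 FPKM in LRP1 KO, with no overlap. All 19 tested endothelial markers had a log2 fold change above 0 in LRP1 KO, with a median of 0.70 and 1 called. Their mean log2(FPKM + 1) was 2.97 to 3.17 in WT, against 4.46, 3.81, 4.10 and 2.98 in LRP1 KO libraries 1 to 4. LRP1 KO library 4 stood apart from the other 3 of its group, with summed endothelial markers of 298 FPKM, the lowest of the group, whose highest was 836 FPKM, but with macrophage markers at 540 FPKM. On the first principal component of all tested genes, which held 60.8% of the variance, it lay at 0.10 while the other LRP1 KO libraries lay at 17.2 to 27.3 and the WT libraries at -24.1 to -12.9. In a mixed sample, fewer cells of one type and less RNA per cell of that type cannot be told apart.

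None of the 38 genes changed between LRP1 KO and WT at an adjusted p under 0.05 (limma, adjusted over all 11389 genes), although 13.6% of all tested genes did. Without adjustment, 4 of the 38 had a p under 0.05 (limma), against 3838 of all 11389 genes tested. Among all tested genes, 6.27% were called higher and 7.31% lower in LRP1 KO, and 1.62% were called with an added limit of 2-fold. The lowest adjusted p among the 38 was 0.0827, for Tyms. The groups did not overlap in 1 of the 38, Tyms, which was higher in every LRP1 KO library, and in 0 they were separated in the other direction, whereas 8.84% of all tested genes were higher and 10.7% lower with no overlap. On the log2(FPKM + 1) scale, which understates changes of low genes such as Cdc6 and Cenpf, the 95% interval of the fold change stayed within 2-fold for 37 of the 38 genes, the exception being Ccne2, and within 1.5-fold for 34 of them (89.5%), against 80.9% of all genes tested. The median absolute log2 fold change of the 38 was 0.07, and over all tested genes it was 0.14, while the median standard error was larger for the 38 (0.12) than over all tested genes (0.09).

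**Figure D1:**
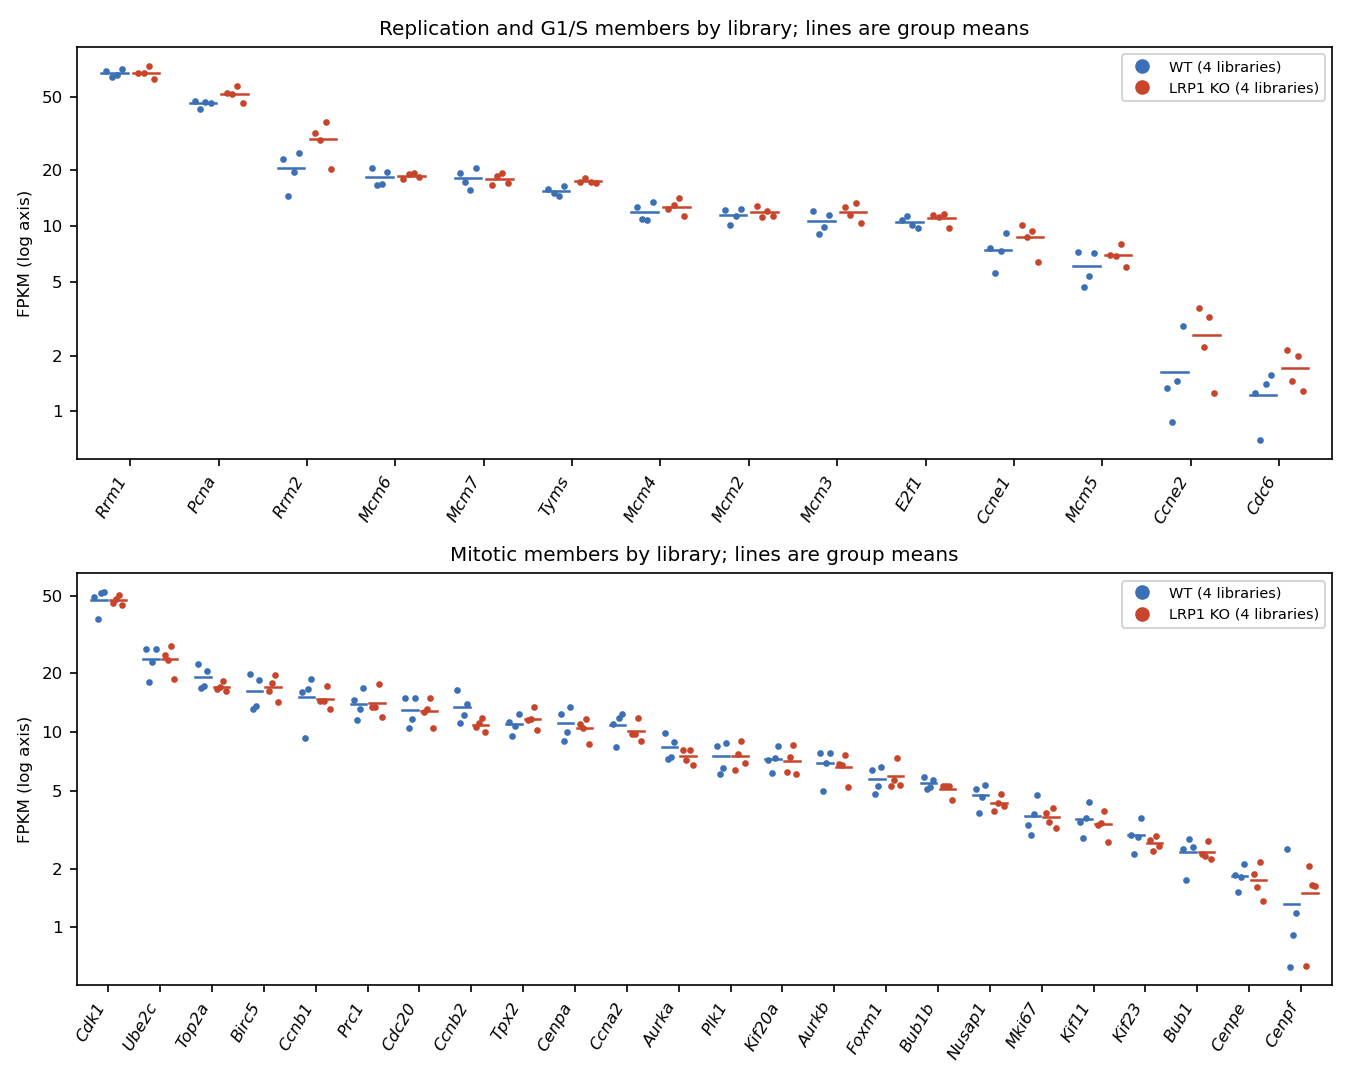
FPKM on a log axis of the 14 replication genes (upper panel) and the 24 mitotic genes (lower panel), with 1 point per library in the order 1 to 4 within each group and a line at each group mean. WT and LRP1 KO points interleave for every gene except Tyms, and the genes span mean levels from 1.40 to 67.3 FPKM.

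The genes ranged widely in level. If the values are FPKM, as inferred, they are scaled to transcript length, and levels can be set side by side between genes. Over all 8 libraries, the mean of the replication genes ran from 1.48 FPKM (Cdc6) to 67.3 FPKM (Rrm1), with a median of 12.0 FPKM. Mitotic genes ran from 1.40 FPKM (Cenpf) to 47.6 FPKM (Cdk1), with a median of 7.74 FPKM. After Rrm1, the order went on with Pcna (48.9 FPKM), Cdk1, Rrm2 (25.0 FPKM) and Ube2c (23.7 FPKM). In WT, Pcna and Cdk1 lay within each other's spread, while Pcna was the higher of the pair in all 4 LRP1 KO libraries. Mki67, the gene of the Ki-67 protein that is widely stained to count cycling cells, was among the lower ones, at 3.73 ± 0.776 FPKM in WT, against 3.66 ± 0.383 FPKM in LRP1 KO.

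The promoters of these genes carried different sequence elements in the replication and the mitotic group. RefSeq promoter sequences (build GRCm38.p6, from 250 bases before to 50 bases after a gene's start) were matched by symbol to 31 of the 38 genes. The CHR element was searched as TTTGAA or TTCGAA, the E2F site as TTTGGCGC or TTTCGCGC or TTTCCCGC or TTTGCCGC, and the CCAAT box as CCAAT, on both strands. CHR words stood in 16 of 20 promoters of mitotic genes (80%) and in 2 of 13 promoters of replication genes (15.4%), against 13.8% of the 10725 promoters of tested genes and 19.2% of all 32851 promoters. E2F words showed the opposite split, with 5 of 13 promoters of replication genes (38.5%) and 1 of 20 of mitotic genes (5%, that of Cdk1), against 4.01% of the promoters of tested genes and 2.26% of all promoters. CCAAT boxes were common in both groups, in 18 of 20 mitotic promoters (90.0%) and 9 of 13 replication promoters (69.2%), against 37.8% of the promoters of tested genes and 37.4% of all. All 16 mitotic promoters with a CHR word also held a CCAAT box, and 5.74% of the promoters of tested genes held both. Mcm7 and Prc1 each have 2 listed promoters, and those of Prc1 overlap. A match of letters does not show that a factor binds there. Expression of the genes carrying these words is given further on.

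The following 8 promoters show the contrast, each as the 180 bases that end just before the gene's RefSeq start, 5′ to 3′ on the gene's strand, with the matched words in capitals. This start can differ from the edge of the GENCODE interval given with a gene's values, and the Cdc6 stretch lies inside that interval. The replication genes shown first are 2 MCM subunits with E2F words and the pair with among the highest fold changes, Cdc6 and Rrm2. In Mcm6 and Mcm5, a run of capitals holds 2 overlapping E2F words on opposite strands, and Mcm6 has a further one nearer the start. Cdc6 has 1 E2F word and no CCAAT box in this stretch, and Rrm2 has a CCAAT box alone.
Mcm6 (chr1:128359706-128359885, minus strand): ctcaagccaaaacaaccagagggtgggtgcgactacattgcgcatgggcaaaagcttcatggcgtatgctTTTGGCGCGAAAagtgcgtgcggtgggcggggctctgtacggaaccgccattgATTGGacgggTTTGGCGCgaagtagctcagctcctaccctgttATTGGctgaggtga
Mcm5 (chr8:75109329-75109508, plus strand): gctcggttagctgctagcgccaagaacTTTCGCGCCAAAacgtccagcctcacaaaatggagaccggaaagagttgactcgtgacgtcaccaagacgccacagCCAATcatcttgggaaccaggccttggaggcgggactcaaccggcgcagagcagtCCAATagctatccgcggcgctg
Cdc6 (chr11:98907971-98908150, plus strand): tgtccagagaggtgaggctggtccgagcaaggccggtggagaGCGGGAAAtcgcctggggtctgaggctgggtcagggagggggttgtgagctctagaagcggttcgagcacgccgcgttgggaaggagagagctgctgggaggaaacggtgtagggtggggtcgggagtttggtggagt
Rrm2 (chr12:24708074-24708253, plus strand): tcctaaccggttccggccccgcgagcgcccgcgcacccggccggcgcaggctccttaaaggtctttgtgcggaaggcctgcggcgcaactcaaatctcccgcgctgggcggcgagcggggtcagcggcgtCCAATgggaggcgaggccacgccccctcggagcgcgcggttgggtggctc

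The 4 mitotic promoters shown next are those of the genes with the lowest fold changes, Ccnb2 and Top2a, and of the most abundant mitotic genes, Cdk1 and Ube2c. All 4 combine CHR words with CCAAT boxes, written CCAAT or, on the other strand, ATTGG. Cdk1 also holds an E2F word upstream of them.
Ccnb2 (chr9:70421555-70421734, minus strand): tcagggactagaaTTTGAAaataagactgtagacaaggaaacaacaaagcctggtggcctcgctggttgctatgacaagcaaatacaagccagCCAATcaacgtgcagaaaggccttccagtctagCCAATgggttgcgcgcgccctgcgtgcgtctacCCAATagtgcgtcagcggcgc
Top2a (chr11:99024190-99024369, minus strand): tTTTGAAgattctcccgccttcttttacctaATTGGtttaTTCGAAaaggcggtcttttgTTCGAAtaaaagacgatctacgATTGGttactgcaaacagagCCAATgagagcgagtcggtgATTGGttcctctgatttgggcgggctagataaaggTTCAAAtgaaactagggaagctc
Cdk1 (chr10:69352913-69353092, minus strand): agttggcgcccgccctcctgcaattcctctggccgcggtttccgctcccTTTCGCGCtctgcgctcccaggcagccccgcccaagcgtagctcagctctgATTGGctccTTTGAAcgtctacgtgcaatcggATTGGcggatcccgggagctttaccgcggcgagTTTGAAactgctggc
Ube2c (chr2:164769749-164769928, plus strand): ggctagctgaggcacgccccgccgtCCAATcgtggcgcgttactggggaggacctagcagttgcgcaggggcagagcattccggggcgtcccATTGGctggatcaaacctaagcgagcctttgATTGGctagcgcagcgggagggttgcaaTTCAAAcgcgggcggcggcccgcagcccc

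Replication genes tended to be estimated higher in LRP1 KO, with none called. Of the 14, 13 had a log2 fold change above 0, as did 5481 of all 11389 genes tested. The 14 had a median of 0.16 and a range of -0.02 to 0.50, beside a median of -0.01 over all genes tested. These genes moved together across libraries, so their directions are not independent. The mean of the 14 per library was 0.17 higher in LRP1 KO, with SDs of 0.16 in WT and 0.15 in LRP1 KO, and the groups overlapped. This median was above 0 under all 18 alternative settings, though it was 0.01, with 8 of the 14 above 0, when the summed endothelial marker level was added to the model and 0.45 when the macrophage level was. Without WT library 2 it was 0.09, with 10 of the 14 above 0.

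Rrm2 (ENSMUSG00000020649, chr12:24708241-24714146) encodes the S-phase-regulated small subunit of ribonucleotide reductase, the enzyme that makes deoxyribonucleotides. It was at 23.0, 14.6, 19.7 and 24.8 FPKM in WT libraries 1 to 4, against 31.8, 29.2, 36.5 and 20.4 FPKM in the LRP1 KO libraries in the same order. In LRP1 KO, 3 libraries lay above every WT library, and library 4 lay inside the WT range. The log2 fold change of Rrm2 was 0.50 (SE 0.19, limma adjusted p = 0.110), and without LRP1 KO library 4 it was 0.66 (adjusted p = 0.0201), where 3021 of all 11389 genes tested were called. It was 0.35 without WT library 2 (limma adjusted p = 0.252). With the mean endothelial marker level in the model it was 0.16 (limma adjusted p = 0.837), and with the macrophage level 1.42 (SE 0.39, adjusted p = 0.109). Rrm1 (ENSMUSG00000030978, chr7:102441695-102469771), the large subunit of the same enzyme, was at 68.5, 63.9, 65.6 and 70.4 FPKM in WT, against 66.8, 66.9, 73.5 and 62.6 FPKM in LRP1 KO. The groups overlapped throughout, with a log2 fold change of 0.01 (SE 0.06, limma adjusted p = 0.955) and a 95% interval of -0.13 to 0.14. Tyms, thymidylate synthase, which makes the thymidine nucleotide, was at 15.8, 15.1, 14.6 and 16.6 FPKM in WT, against 17.3, 18.2, 17.3 and 17.2 FPKM in LRP1 KO. All 4 LRP1 KO libraries exceeded all 4 WT libraries by a log2 fold change of 0.16 (SE 0.06, limma adjusted p = 0.0827). Pcna, the sliding clamp that holds DNA polymerase on its template, was at 46.0 ± 2.02 FPKM in WT, against 51.8 ± 4.53 FPKM in LRP1 KO (n = 4 each). Its log2 fold change of 0.17 (SE 0.07) had an adjusted p of 0.133, and LRP1 KO library 4, at 46.0 FPKM, lay within the WT range of 43.1 to 47.6 FPKM.

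Of the licensing and G1/S genes, Ccne2 (ENSMUSG00000028212, chr4:11191351-11204779), which encodes cyclin E2, an activator of CDK2 at the start of S phase, was at 1.33, 0.88, 1.46 and 2.89 FPKM in WT. In LRP1 KO it was at 3.61, 2.22, 3.22 and 1.26 FPKM, so that both groups covered much of the same range. Cyclin E2 had a log2 fold change of 0.44 (SE 0.26, limma adjusted p = 0.270), with the widest 95% interval of the replication genes, -0.16 to 1.03. Without WT library 2 the estimate was 0.29. Cdc6 (ENSMUSG00000017499, chr11:98907801-98923940), which loads the MCM helicase onto origins, was at 1.26, 0.70, 1.40 and 1.57 FPKM in WT, against 2.14, 1.46, 2.0 and 1.29 FPKM in LRP1 KO. Its groups overlapped through LRP1 KO libraries 2 and 4. The log2 fold change was 0.29 (SE 0.15, limma adjusted p = 0.207) and 0.17 without WT library 2, and at such low levels log2(FPKM + 1) understates the ratio of means, which was 140%. Ccne1, which encodes cyclin E1, was at 7.42 ± 1.48 FPKM in WT, against 8.69 ± 1.63 FPKM in LRP1 KO, a log2 fold change of 0.20. E2f1, one of the E2F activators, was at 10.5 ± 0.711 and 11.0 ± 0.866 FPKM (n = 4 each), a log2 fold change of 0.07.

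The 6 subunits of the MCM2 to MCM7 helicase ring, which unwinds DNA at the fork and is assembled in equal numbers, had unequal levels on the inferred FPKM scale. Over all libraries, Mcm6 (18.6 FPKM) and Mcm7 (18.1 FPKM) were highest, Mcm4 (12.3 FPKM), Mcm2 (11.7 FPKM) and Mcm3 (11.3 FPKM) were close together, and Mcm5 (6.55 FPKM) was lowest. The neighbours Mcm6 and Mcm7, and Mcm4, Mcm2 and Mcm3, did not differ beyond their spread. Mcm6 (ENSMUSG00000026355, chr1:128331590-128359664) was at 20.7, 16.7, 16.8 and 19.7 FPKM in WT, against 18, 19.1, 19.5 and 18.4 FPKM in LRP1 KO, with all LRP1 KO libraries inside the WT range. For Mcm6 the log2 fold change was 0.03 (SE 0.08, limma adjusted p = 0.838). Mcm7 (ENSMUSG00000029730, chr5:138164583-138172422) had the lowest fold change of the replication genes, at 19.4, 17.3, 15.6 and 20.7 FPKM in WT, against 16.6, 18.6, 19.5 and 17.1 FPKM in LRP1 KO. It too had every LRP1 KO library within the WT range, with a log2 fold change of -0.02 (SE 0.09, limma adjusted p = 0.917). The others had log2 fold changes of 0.05 (Mcm2), 0.09 (Mcm4), 0.16 (Mcm3) and 0.18 (Mcm5), each with a 95% interval that included 0. The direction of Mcm6 and Mcm7 changed when single libraries were left out.

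**Figure D2:**
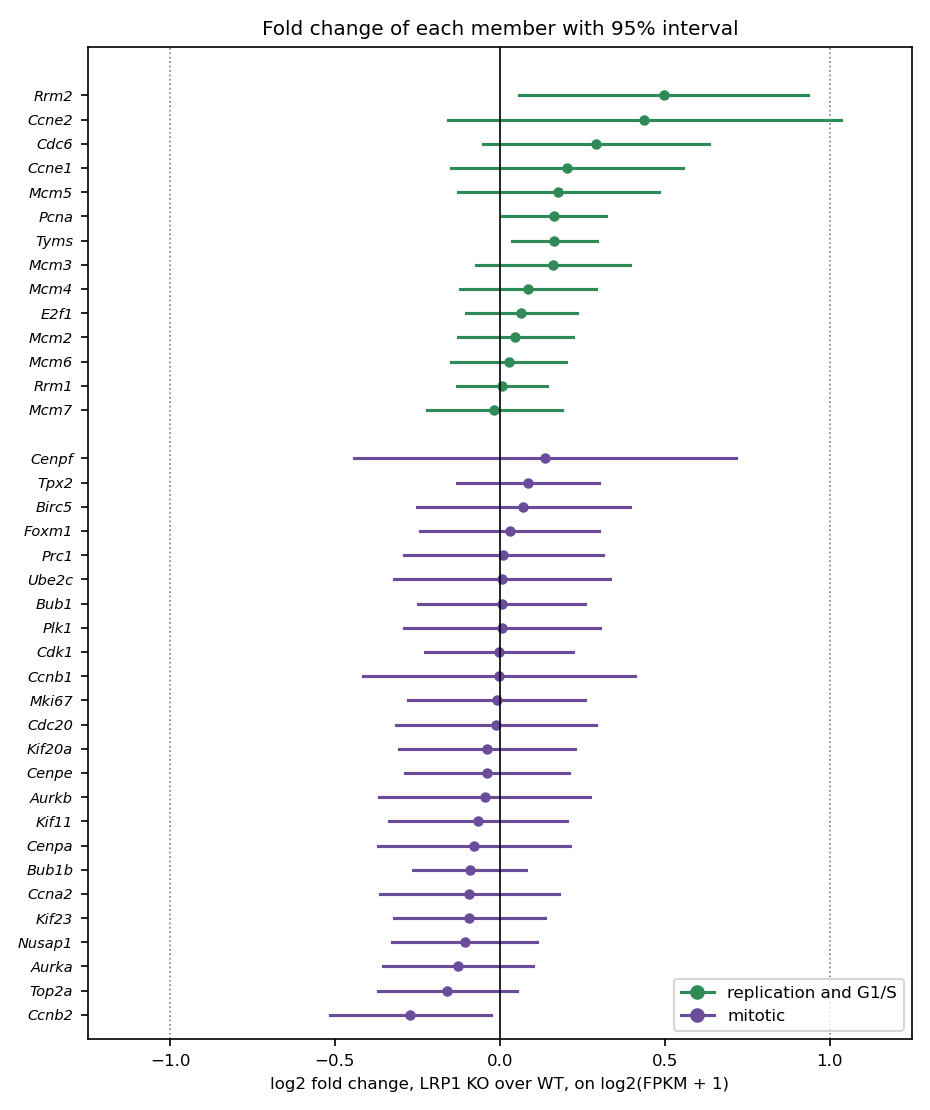
Log2 fold change of LRP1 KO over WT on the log2(FPKM + 1) scale for each of the 38 genes, points with 95% intervals (limma), replication genes in green and mitotic genes in violet, and dotted lines at 2-fold. 13 of 14 replication estimates and 8 of 24 mitotic estimates lie right of 0, and only the interval of Ccne2 crosses a dotted line.

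Mitotic genes were centred close to 0. Of the 24, 8 had a log2 fold change above 0 and 16 below, with a median of -0.03 and a range of -0.27 to 0.14. This median turned to 0.03 without WT library 4 or without LRP1 KO library 4, and to 0.33 with the macrophage level in the model. The number of mitotic genes above 0 moved from 8 to 1 without WT library 2, to 17 without WT library 4, to 16 without LRP1 KO library 4, to 3 without LRP1 KO library 3, to 12 without WT library 1 and to 12 after rescaling the libraries by their median ratio. It was 24 with the macrophage level in the model, 2 with the endothelial level and 4 with library quality weights. A direction for the mitotic genes as a group is therefore not given.

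Among the cyclins and kinases that drive mitosis, Cdk1, the kinase at the centre of mitotic entry, was at 49.5, 38.0, 51.5 and 52.2 FPKM in WT, against 45.9, 48.3, 50.7 and 44.7 FPKM in LRP1 KO, with a log2 fold change of -0.00199 (95% interval -0.23 to 0.22). All LRP1 KO values lay within the WT range, and WT library 2 was the lowest of the 8. Its partner cyclins were less uniform. Ccnb2 (ENSMUSG00000032218, chr9:70407692-70421547), which encodes cyclin B2, had the lowest fold change of all 38 genes, at 16.5, 11.2, 12.3 and 13.9 FPKM in WT, against 10.7, 11.1, 11.8 and 10.05 FPKM in LRP1 KO. In WT, 3 libraries were above every LRP1 KO library, and WT library 2 was within the LRP1 KO range. The log2 fold change was -0.27 (SE 0.11, limma adjusted p = 0.116, 95% interval -0.51 to -0.03), and -0.18 without WT library 1. Ccnb1, which encodes cyclin B1, was at 15.2 ± 4.08 and 14.8 ± 1.72 FPKM and Ccna2, which encodes cyclin A2, at 10.9 ± 1.75 and 10.1 ± 1.22 FPKM in WT and LRP1 KO (n = 4 each).

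Aurka (ENSMUSG00000027496, chr2:172356190-172370535), the kinase that matures centrosomes and helps build the spindle, was at 9.87, 7.33, 7.45 and 8.88 FPKM in WT, against 8.09, 7.24, 8.14 and 6.78 FPKM in LRP1 KO. The groups overlapped, with a log2 fold change of -0.13 (SE 0.10, limma adjusted p = 0.405), and -0.05 without WT library 1. Tpx2 (ENSMUSG00000027469, chr2:152847964-152895321) encodes a spindle protein that activates Aurora A, and it was at 11.3, 9.53, 10.8 and 12.4 FPKM in WT, against 11.5, 11.7, 13.4 and 10.3 FPKM in LRP1 KO. Its log2 fold change was 0.09 (SE 0.10, limma adjusted p = 0.564), and 0.02 without WT library 2 or without LRP1 KO library 3. Neither gene passed the test. Aurkb and Birc5, kinase and survivin subunit of the chromosomal passenger complex, gave -0.05 and 0.07 on the log2 scale. Birc5 (ENSMUSG00000017716, chr11:117849251-117855743) was at 19.9, 13.2, 13.6 and 18.5 FPKM in WT, against 16.3, 17.8, 19.6 and 14.3 FPKM in LRP1 KO (SE 0.14, limma adjusted p = 0.757). All its LRP1 KO values fell within the WT range. Plk1, which acts from mitotic entry to cytokinesis, was at 7.52 ± 1.37 and 7.52 ± 1.15 FPKM.

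Top2a (ENSMUSG00000020914, chr11:98992943-99024189), the topoisomerase that untangles sister chromosomes, was at 22.5, 16.8, 17.3 and 20.6 FPKM in WT, against 16.6, 17.1, 18.2 and 16.2 FPKM in LRP1 KO. WT libraries 1 and 4 were above all LRP1 KO libraries, and the other two were within their range. The log2 fold change was -0.16 (SE 0.09, limma adjusted p = 0.256), and -0.09 without WT library 1. Cenpf (ENSMUSG00000026605, chr1:189640606-189688086), a kinetochore protein, varied widely relative to its level, at 2.51, 0.63, 0.91 and 1.19 FPKM in WT, against 0.64, 2.06, 1.66 and 1.64 FPKM in LRP1 KO. Each group covered nearly the whole range of the other. Its log2 fold change of 0.14 had an SE of 0.26 (limma adjusted p = 0.739) and turned to -0.01 without WT library 2. The other kinetochore and checkpoint genes, Bub1, Bub1b, Cenpa and Cenpe, had log2 fold changes of -0.09 to 0.01. Cdc20 and Ube2c, which direct the anaphase-promoting complex that ends mitosis, were at -0.01 and 0.01. The motors and midzone proteins Kif11, Kif20a, Kif23, Prc1 and Nusap1 had log2 fold changes of -0.11 to 0.01, and Foxm1, a transcription factor of mitotic genes, was at 5.79 ± 0.886 FPKM in WT, against 5.93 ± 0.962 FPKM in LRP1 KO.

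Set against each other within each library, the 2 groups of genes separated WT from LRP1 KO, which neither did alone. The mean log2(FPKM + 1) of the 14 replication genes was 3.75, 3.48, 3.61 and 3.84 in WT libraries 1 to 4 and 3.91, 3.82, 3.97 and 3.63 in LRP1 KO libraries 1 to 4. That of the 24 mitotic genes was 3.296, 2.90, 3.13 and 3.34 in WT and 3.09, 3.14, 3.301 and 2.98 in LRP1 KO. On each score the groups overlapped. Their difference within a library, mitotic minus replication, was -0.45, -0.58, -0.49 and -0.50 in WT and -0.82, -0.69, -0.67 and -0.65 in LRP1 KO. All 4 LRP1 KO libraries were below all 4 WT libraries, with means of -0.71 ± 0.08 and -0.50 ± 0.05 (SD, n = 4 each), a gap of -0.20. As this is a score over chosen genes, no p-value is given. The order of the groups did not hinge on 1 gene, since the groups stayed apart when each of the 38 genes was left out in turn, with gaps of -0.22 to -0.18. It was also kept with a pseudocount of 0.1. Rescaling a whole library shifts both scores nearly alike, so it could not test this order. With genes under a mean of 5 FPKM left out, 3 of 4 LRP1 KO libraries were below all WT libraries (-0.62 to -0.50 in LRP1 KO, -0.50 to -0.34 in WT). LRP1 KO library 4, which lay nearer to WT in endothelial markers but with its own group in macrophage markers, was at -0.65. With the mean endothelial marker level in the model the gap was -0.14, and with the macrophage level it was -0.21. The part of cell type makeup in this gap was not tested.

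**Figure D3:**
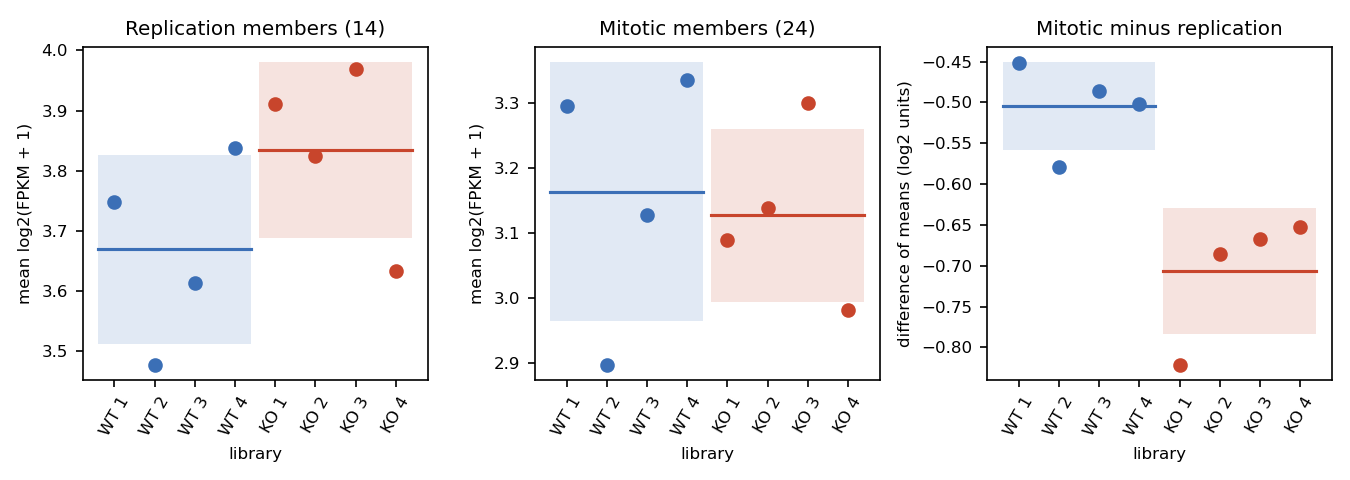
Mean log2(FPKM + 1) of the replication genes (left) and mitotic genes (middle), and their difference, mitotic minus replication (right), for each of the 8 libraries, with lines at group means and bands of 1 SD. The groups overlap on each score, while in the right panel the LRP1 KO libraries, at -0.82 to -0.65, all lie below the WT libraries, at -0.58 to -0.45.

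Within each group, the 38 genes went up and down together from library to library. WT library 2 was the lowest of the WT libraries in 34 of the 38 genes (89.5%), among them all 24 mitotic genes, whereas it was the lowest in 22.9% of all tested genes. WT library 4 was the highest in 23 of the 38 (60.5%, against 17.6% of all tested genes). In LRP1 KO, library 4 was the lowest in 30 of the 38 (78.9%, against 31.9%) and library 3 the highest in 32 (84.2%, against 25.7%). The mean distance of the 38 genes from their group mean, on the log2 scale, was 0.11, -0.24, -0.04 and 0.17 in WT libraries 1 to 4. In LRP1 KO libraries 1 to 4 it was 0.00398, 0.00323, 0.16 and -0.17. Over all genes tested these distances lay between -0.00297 and 0.00434. The spread from library to library was accordingly larger than usual, with a median SD of 0.20 in WT and 0.15 in LRP1 KO for the 38 genes and of 0.12 and 0.11 for all genes tested. Replication and mitotic genes moved the same way in libraries 1 to 4 of WT and in libraries 3 and 4 of LRP1 KO. They moved apart in LRP1 KO library 1, at 0.08 and -0.04 from their group means, and by little in library 2, at -0.0098 and 0.0108. The gap between their scores varied less among libraries of a group, with a log2 range of 0.13 in WT and 0.17 in LRP1 KO. With WT library 2 and LRP1 KO library 4 both left out, a choice made after these values were seen, Rrm2 was the 1 gene of the 38 to be called (log2 fold change 0.51, limma adjusted p = 0.0191), where 2190 of all 11389 genes tested were called, and the gap of mitotic minus replication was -0.25.

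**Figure D4:**
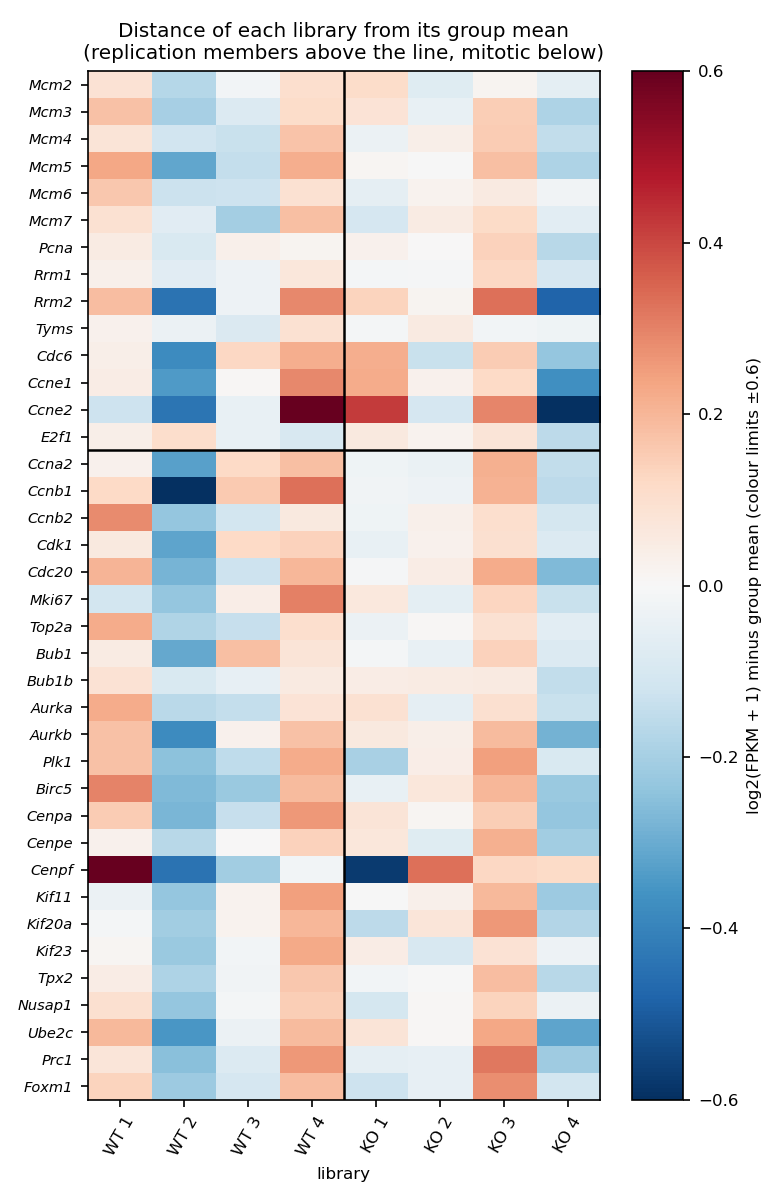
Distance of each library from the mean of its group in log2(FPKM + 1), 1 row per gene, replication genes above the horizontal line and mitotic genes below, red for higher and blue for lower, with colours limited to 0.6 in either direction. WT library 2 and LRP1 KO library 4 are blue in most rows, and WT library 4 and LRP1 KO library 3 are red.

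Further genes of the same processes gave weaker contrasts in the same order. Of 45 other replication genes, such as origin recognition, polymerase, clamp loader and fork protection genes, 44 had a row and were tested, and 2 were called, against 13.6% of all genes tested. Orc4, an origin recognition subunit, rose from 20.2 ± 3.21 to 27.9 ± 3.07 FPKM (n = 4 each), a log2 fold change of 0.45 (SE 0.11, limma adjusted p = 0.0335), with all LRP1 KO libraries above the WT range. Chaf1b, a chromatin assembly subunit that places histones behind the fork, fell from 15.4 ± 1.54 to 12.2 ± 0.685 FPKM, a log2 fold change of -0.31 (SE 0.08, limma adjusted p = 0.0341), with no overlap. In all, 31 of the 44 had estimates above 0, with a median of 0.07. The call of Orc4 was lost in 10 of the 18 alternative settings and that of Chaf1b in 11.

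Of 48 other mitotic genes, 46 were tested and 3 were called, all lower in LRP1 KO, where 7.31% of all genes tested were called lower, so that their share was near the background and is no result about mitotic genes. Stmn1, which encodes stathmin, a protein that destabilizes microtubules, was at 106, 124, 93.5 and 93.4 FPKM in WT, against 64.0, 61.9, 62.7 and 78.5 FPKM in LRP1 KO, with no overlap. Stathmin thus had a log2 fold change of -0.63 (SE 0.11, limma adjusted p = 0.00954). The call was lost in 2 of 18 alternatives, those with the macrophage level (-0.81, limma adjusted p = 0.149) and with the endothelial level (-0.49, limma adjusted p = 0.173) in the model. Of all 11389 genes tested, 11 were called with the macrophage level and 174 with the endothelial level. Ncaph, a subunit of the condensin complex that compacts mitotic chromosomes, fell from 10.7 ± 1.04 to 8.14 ± 0.529 FPKM, a log2 fold change of -0.35 (limma adjusted p = 0.0240). Hmgb2, a chromatin protein of dividing cells, fell from 11.8 ± 0.988 to 9.33 ± 0.656 FPKM, a log2 fold change of -0.31 (limma adjusted p = 0.0307). These calls were lost in 7 (Ncaph) and 9 (Hmgb2) of the 18 alternatives. Orc4, Chaf1b, Ncaph and Hmgb2 were all not called with either of these marker levels in the model. Across the 46, 17 estimates were above 0 and the median was -0.06. For these lists the difference per library, mitotic minus replication, was 0.13, 0.03, 0.16 and 0.16 in WT and -0.05, -0.02, 0.06 and 0.02 in LRP1 KO. The groups overlapped here, through WT library 2 and LRP1 KO library 3, with means of 0.12 ± 0.06 and 0.00276 ± 0.05.

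Several genes that set the decision to enter the cycle in G1 passed the test. Of 30 genes for G1 cyclins and kinases, CDK inhibitors, E2F factors and related regulators, 28 were tested and 8 were called, 5 higher and 3 lower in LRP1 KO, where 13.6% of all genes tested were called, 6.27% higher and 7.31% lower. Genes of D-type cyclins, which start the cycle by activating CDK4 and CDK6, and of the CDK inhibitor p21 were both among those that were higher. Ccnd1, which encodes cyclin D1, was at 28.8, 19.0, 31.1 and 37.6 FPKM in WT, against 78.8, 70.7, 91.7 and 38.7 FPKM in LRP1 KO. All LRP1 KO libraries were higher, library 4 by little, with a log2 fold change of 1.21 (SE 0.27, limma adjusted p = 0.0235). Ccnd2, which encodes cyclin D2, rose from 40.1 ± 5.90 to 72.4 ± 20.4 FPKM, a log2 fold change of 0.80 (limma adjusted p = 0.0318), with LRP1 KO library 4 at 45.8 FPKM inside the WT range. Cdkn1a, which encodes the CDK inhibitor p21, was at 161, 134, 139 and 150 FPKM in WT, against 241, 231, 228 and 213 FPKM in LRP1 KO, with no overlap and library 4 close to the rest of its group. The log2 fold change of Cdkn1a was 0.65 (SE 0.07, limma adjusted p = 0.00113). The call was lost in 1 of 18 alternatives, the macrophage level in the model, where 11 of all 11389 genes tested were called. The log2 fold change of Cdkn1a was then 0.85 and its SE 0.17 (limma adjusted p = 0.0851).

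Ccng1, which encodes cyclin G1 and is, like Cdkn1a, a known p53 target, rose from 129 ± 17.0 to 197 ± 36.0 FPKM, a log2 fold change of 0.60 (limma adjusted p = 0.0258). Myc, a transcription factor that drives growth and G1 progression, rose from 17.7 ± 1.08 to 26.4 ± 3.77 FPKM, a log2 fold change of 0.54 (limma adjusted p = 0.0121). Of the called genes that were lower, Gas1, a gene first found in growth-arrested cells, fell from 108 ± 7.09 to 78.0 ± 12.6 FPKM, a log2 fold change of -0.47 (limma adjusted p = 0.0239). Btg2, an antiproliferative gene, fell from 69.9 ± 3.71 to 54.3 ± 6.96 FPKM, a log2 fold change of -0.37 (limma adjusted p = 0.0283). Cdk4, the kinase partner of the D cyclins, fell from 397 ± 31.0 to 333 ± 14.3 FPKM, a log2 fold change of -0.25 (limma adjusted p = 0.0384). The called genes thus included activators and inhibitors of the cycle both among those that rose and among those that fell. Myc was called in 16 of 18 alternatives. Without LRP1 KO library 1, 2 or 3, or WT library 1 or 2, none of Ccnd1, Ccnd2, Ccng1, Gas1, Btg2 and Cdk4 was called (limma adjusted p of 0.0542 to 0.107 with fewer libraries). In those fits 512 to 850 of all 11389 genes tested were called. Without LRP1 KO library 4 all 6 were called, where 3021 of all genes tested were. With the mean endothelial marker level in the model, 174 of all 11389 genes tested were called, and Cdkn1a alone of these 8 (limma adjusted p = 0.0175). Ccnd1 then had a log2 fold change of 0.68 (limma adjusted p = 0.405) and Ccnd2 one of 0.37 (adjusted p = 0.503). With the macrophage level, 11 genes were called in all, none of them among these 8. Ccnd1 was then at 2.32 and Ccnd2 at 1.66 (limma adjusted p = 0.103 each). The part of cell type makeup in these values was not tested.

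**Figure D5:**
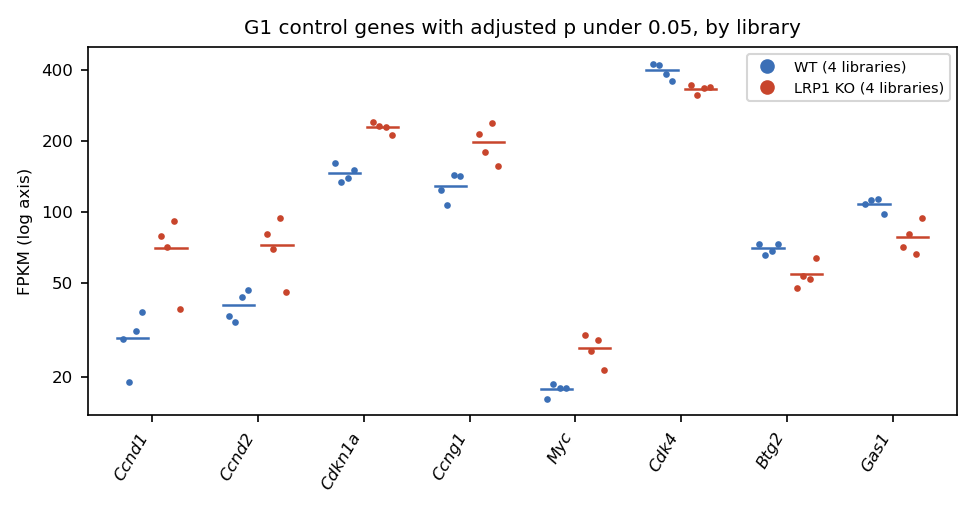
FPKM on a log axis of the 8 called G1 control genes, with 1 point per library in the order 1 to 4 within each group and lines at group means. LRP1 KO library 4 lies nearest to WT among the LRP1 KO libraries for Ccnd1, at 38.7 FPKM against at most 37.6 FPKM in WT, and for the other called genes except Cdk4.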

How the data were processed

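RNA sequencing was done on 8 libraries. The submitters' processing notes list TopHat2, Cufflinks and the mm10 build. The study's methods name STAR and featureCounts instead, and which of these made the table is not stated. How the authors made the deposited FPKM values, and how reads shared with pseudogenes were assigned, is not given in the sources used here. The unit is inferred: the columns hold no whole numbers apart from 0, sum to 503571 to 504112 and share a highest value of 7793, so they are quantile normalized, which leaves no depth, and a count test could not be run.

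Values were analysed as log2(FPKM + 1). Genes at 1 or more in at least 4 libraries were fitted with limma 3.58.1 (R 4.3.3; group as the only term, variance trend, two-sided) and Benjamini-Hochberg adjusted over all 11389. The script was tested on simulated data. Gene positions are from GENCODE M21 (GRCm38, by Ensembl ID) and promoters from RefSeq.

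The members, gene lists and alternatives were chosen with earlier results of these data known. Values per library are given for the members with the 3 highest and 3 lowest fold changes of each role group. No member was called, and genes of the other lists are named where called. Tyms, Pcna, Cdk1 and other genes named beyond this rule were chosen after their values were seen. Alternatives were the pseudocount, filters, rescaling, variance trend, library weights, marker covariates, a replicate block and left-out libraries.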

Additional observations from a re-analysis of the deposited data

Results flagged for a closer look

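For 57 genes and scores, each group of 4 libraries was checked for a library far from the other 3, which made 114 checks, and 4 of them found a library that stood apart (Dixon's test). Chance alone flags about 1 in 20 groups. In LRP1 KO library 2, Tyms was at 4.26 on the log2(FPKM + 1) scale, above 4.18 to 4.19 in the other LRP1 KO libraries. Cdk1 was at 5.28 in WT library 2, below 5.66 to 5.73 in the other WT libraries. In LRP1 KO library 4, Bub1b was at 2.46, below 2.65 to 2.66 in the rest of the group. Stmn1 in the same library was at 6.31, above 5.97 to 6.02 in the others and toward the WT level.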

How the results depend on the processing

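Of the summary values, 109 moved by less than the spread between libraries (counts by at most 1.5 times) and 17 by more. Among the 109, the replication median went from 0.16 to 0.01 with the endothelial level in the model, and the mitotic median of -0.03 was -0.11 when WT library 2 was left out and turned to 0.03 when library 4 of either group was. Genes called over the whole table numbered 1547, against 3003 with library quality weights, 11 with the macrophage level and 174 with the endothelial level in the model, and 512 (without WT library 2) to 3021 (without LRP1 KO library 4) with 1 library left out. The number fell to 1008 or less without any of the other 6 libraries. Members called higher were 0 of 38, against 2 (Pcna and Rrm2) with quality weights, 1 with WT library 2 and LRP1 KO library 4 both left out, and 0 to 2 with 1 left out (2, Pcna and Rrm2, without LRP1 KO library 4). Members called lower were 0 in all 18 alternatives. The median of replication members was 0.45 and that of mitotic members 0.33 with the macrophage level, where the median standard error over genes rose from 0.09 to 0.22. The gap of mitotic minus replication stayed between -0.25 and -0.14. The cause of these shifts was not tested.

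Single genes named kept their direction and side of the threshold in 323 comparisons, lost a call in 99, gained one in 3 (Rrm2) and changed sign in 22. With the macrophage level, Mcm7 was at 0.217, Ccnb2 at 0.124, Top2a at 0.177 and Aurka at 0.347. With the endothelial level, Rrm1 was at -0.0573, Ccne2 at -0.0280, Birc5 at -0.0502 and Tpx2 at -0.0129. With 1 library left out, Mcm7 ran from -0.0842 to 0.0435 (above 0 without WT library 1 or 4 or LRP1 KO library 1 or 4), Rrm1 from -0.0354 to 0.0405 (below 0 without WT library 2 or 3 or LRP1 KO library 3) and Mcm6 from -0.0165 to 0.0797. Likewise Birc5 ran from -0.0167 to 0.170, below 0, like Mcm6, without WT library 2 or 3, and Cenpf from -0.0104 to 0.359, below 0 without WT library 2. With WT library 2 and LRP1 KO library 4 both left out, Mcm6 was at -0.00909 and Cenpf at -0.0494. Ccnd1 ran from 0.68 to 2.32 and lost its call in 9 of 18 alternatives.

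With the replicate number as a block, 1013 genes were called, and 0 of the 38. Chaf1b, Ncaph, Hmgb2, Ccnd1, Ccnd2, Gas1 and Cdk4 were then not called (limma adjusted p of 0.0503 to 0.0737). Deviations of same-numbered libraries correlated at 0.16, 0.14, 0.34 and -0.31, and 2 of 4 matched best with their own number. With 4 numbers, this cannot settle whether they pair the samples. Depth is unknown, so counting error could not be separated from the spread between libraries.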

Other observations

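The other CDK inhibitors, chosen after their values were seen, did not pass the test. Cdkn1b, which encodes p27, was at 13.3, 15.4, 14.7 and 12.5 FPKM in WT, against 8.80, 10.1, 10.8 and 14.7 FPKM in LRP1 KO, a log2 fold change of -0.33 (limma adjusted p = 0.127), with LRP1 KO library 4 inside the WT range. Cdkn2a, the locus of p16 and p19ARF, which rises in many cultured and senescent cells, was at 51.9 ± 9.41 FPKM in WT, against 45.3 ± 4.62 FPKM in LRP1 KO (n = 4 each), a level near that of Pcna. Its neighbour Cdkn2b, which encodes p15, was at 36.3 ± 4.74 and 36.1 ± 2.89 FPKM. Among the E2F factors on the lists used here, which leave out E2f6, E2f4, a repressor member of the DREAM complex, was the most abundant, at 31.5 ± 0.956 FPKM in WT, against 30.7 ± 1.96 FPKM in LRP1 KO, and E2f2 was under 1 FPKM in all 8 libraries. Ccnd3, the third D-type cyclin gene, was at 51.5 ± 4.69 and 64.1 ± 8.66 FPKM, a log2 fold change of 0.30 (limma adjusted p = 0.0780). Gas6, which encodes a ligand of TAM receptors, was at 693 ± 139 and 478 ± 84.4 FPKM, a log2 fold change of -0.53 (limma adjusted p = 0.0531), just short of the threshold.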
